A study of Mus musculus with 6 samples.

Results

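Serum amyloid A, orosomucoid, haptoglobin, lipocalin 2 and C-reactive protein are secreted proteins of the acute phase response. Their genes were examined here in mouse liver through every probe set of the array that carries exactly 1 gene symbol, where that symbol is Saa1, Saa2, Saa3, Saa4, Orm1, Orm2, Orm3, Hp, Lcn2 or Crp. All 10 genes were found, with 12 of the 34945 probe sets that carry 1 symbol, and all 10 passed the filter on low levels, as did 14071 of 18193 genes in the whole series. The livers came from male C57BL/6 mice, an inbred strain, kept on normal diet or on high-fat diet, the latter with 60% of its calories as fat. Feeding started at 8 weeks of age and lasted 12 weeks, and no other allele or agent is named for either group. Each diet had 6 mice, whose RNA was pooled by 2, read here as 3 pools per diet, and each pool was measured on its own Affymetrix Mouse Genome 430 2.0 array (n = 3 arrays per diet). The p-values therefore weigh a diet difference against the spread between pools, not between single mice. Because the tissue is bulk liver, fewer cells of a type and less RNA per cell cannot be told apart.

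In the acute phase response, cytokines of the IL-6 and IL-1 families reach hepatocytes and act through STAT3, NF-kappaB and the C/EBP factors to raise transcription of a set of plasma protein genes. Serum amyloid A proteins are small apolipoproteins of high density lipoprotein, and SAA1 and SAA2 are among the most inducible products of the liver. Orosomucoid is a plasma carrier of basic drugs, haptoglobin binds free haemoglobin, lipocalin 2 binds bacterial siderophores and so withholds iron, and C-reactive protein is a pentraxin, which in mice responds far less to inflammation than in humans.

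Values are log2 expression levels made by robust multi-array averaging (RMA), each difference is the high-fat mean less the normal diet mean, given ± its standard error (SE) from limma, and a gene was called at a limma adjusted p below 0.05. Of 9 measured hepatocyte markers, Alb lay between 14.37 and 14.49 and Ttr between 14.16 and 14.38, while the probe set of Ass1 was near the array median, at 3.66 to 3.99. Fgb was the 1 marker of this list called lower, from 13.69, 13.97 and 14.04 on normal diet to 13.02, 13.13 and 13.19 on high-fat diet. It is itself a positive acute phase gene and stands in that list below as well. Cps1 measured 13.01, 12.99 and 13.02 on normal diet and 12.73, 12.67 and 12.78 on high-fat diet, without overlap. Its difference of -0.28 ± 0.09 was not called (limma adjusted p = 0.1). At an unadjusted limma p below 0.05 the marker list had 2 lower, Cps1 and Fgb, and 0 higher. The marker list's summed linear signal, with Fgb in it, was 108176 to 111758 on normal diet and 103510 to 106148 on high-fat diet, without overlap. The sum without Fgb was not taken, so the separation cannot be credited to markers other than Fgb. This sum is thus no measure of hepatocyte content apart from the acute phase genes. The part of this difference in the results was not tested. Pairs of arrays correlated over all probe sets at Pearson's r of 0.984 to 0.992 (normal diet), 0.994 to 0.995 (high-fat diet) and 0.974 to 0.988 (between diets). The Gapdh controls gave a 3' to 5' difference of 0.36 on normal diet 1, against -0.19 to 0.01 on the remaining 5 arrays. Spread within a diet was larger on normal diet, with a median gene SD of 0.166, than on high-fat diet, with 0.117.

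The Saa genes, 4 in number, lie next to each other on chromosome 7, from 46711998 to 46754313 (GRCm38.p6), a span of 42.3 kb. Saa1 (46740497 to 46743181) and Saa2 (46751833 to 46754313) lie on opposite strands, with their outermost annotated starts 8.65 kb apart. Saa4 (46727992 to 46732603) lies on the side of Saa1 away from Saa2, and Saa3 (46711998 to 46719615) lies beyond Saa4. The Saa3 window shown lies inside the gene's annotated span, at a start other than the outermost. The Saa1 window also belongs to a start inside the annotated span, so that start is not the one behind the 8.65 kb. The promoter windows of Saa1 and Saa2, from 250 bases before to 50 after the start, are shown because these genes had the smallest p-values of the family, and those of Saa4 and Saa3 for comparison within the cluster. RefSeq windows on GRCm38.p6 were found for 8 of the 10 genes. Capitals mark matches to a C/EBP motif, read on the strand opposite to the one printed.
Saa1, chr7:46742931-46743230, minus strand: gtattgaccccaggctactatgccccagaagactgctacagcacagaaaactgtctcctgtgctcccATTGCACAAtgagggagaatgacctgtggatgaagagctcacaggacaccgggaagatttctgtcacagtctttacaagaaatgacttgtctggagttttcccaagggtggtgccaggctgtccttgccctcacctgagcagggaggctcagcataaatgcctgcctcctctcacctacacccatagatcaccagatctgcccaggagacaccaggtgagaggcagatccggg
Saa2, chr7:46751583-46751882, plus strand: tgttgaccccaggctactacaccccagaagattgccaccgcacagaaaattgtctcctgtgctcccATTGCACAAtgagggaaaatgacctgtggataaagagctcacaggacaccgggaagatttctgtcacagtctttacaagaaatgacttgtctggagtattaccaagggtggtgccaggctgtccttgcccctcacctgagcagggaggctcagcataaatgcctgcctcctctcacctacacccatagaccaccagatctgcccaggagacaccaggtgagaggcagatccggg
Saa4, chr7:46732554-46732853, minus strand: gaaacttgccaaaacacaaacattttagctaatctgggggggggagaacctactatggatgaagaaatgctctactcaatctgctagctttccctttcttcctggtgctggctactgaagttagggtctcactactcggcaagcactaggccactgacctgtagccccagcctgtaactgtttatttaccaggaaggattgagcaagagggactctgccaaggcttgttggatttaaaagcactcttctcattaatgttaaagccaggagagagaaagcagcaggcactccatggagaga
Saa3, chr7:46715627-46715926, minus strand: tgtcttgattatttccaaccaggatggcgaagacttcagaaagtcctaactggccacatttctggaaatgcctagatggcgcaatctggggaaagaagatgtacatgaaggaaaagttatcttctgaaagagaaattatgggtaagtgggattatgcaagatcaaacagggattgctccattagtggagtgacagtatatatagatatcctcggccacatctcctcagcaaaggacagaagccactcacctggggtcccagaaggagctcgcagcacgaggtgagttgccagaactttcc

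The Saa1 and Saa2 windows were 95.3% identical over 301 aligned columns, against 50.1% for Saa1 and Saa3 and 44.0% for Saa1 and Saa4. Both held the C/EBP match TTGTGCAAT, at position -183 in Saa1 and -184 in Saa2 from the start used for each window. The motif searched was TTNNGNAAT on both strands. It was present in 4 of the 8 windows (Saa1, Saa2, Orm2 and Crp) and in 11.5% of 32851 windows of all genes. A STAT3 motif, TTCNNNGAA, was found in 0 of the 8 windows and in 8.3% of all. An NF-kappaB motif, GGGNNTTTC, was found in 0 of the 8 and in 4.36% of all. No match says only that these letters are not in the window.

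All 10 acute phase genes had a lower mean under the high-fat diet, as did 49.5% of all genes tested. Of the 10, 3 fell by limma's test, namely Saa1, Saa2 and Saa4. Saa2 was 12.9-fold lower, Saa1 6.7-fold and Saa4 2.51-fold (n = 3 arrays per diet). No member rose, and at an unadjusted limma p below 0.05 there were 7 members lower and 0 higher. Many genes of the series pass that cut, as Orm1, at an unadjusted limma p of 0.0333, ranked only 3157 by p among the 14071 genes. The unadjusted counts of the lists and neighbours below have to be read beside this. Across all 14071 genes tested, 1.73% were called lower and 5.87% higher, so calls over the whole liver were mostly higher (244 lower and 826 higher, or 299 and 597 after quantile normalization). These counts were 59 and 213 without high-fat diet 1, 55 and 162 without high-fat diet 2 and 46 and 123 without high-fat diet 3. The median difference was -0.97 over the 10 genes and 0.0033 over all genes. In 8 of the 10, every high-fat array lay below every normal diet array, which held for 14.7% of all genes. The members and their direction were known from earlier results when the list was drawn up, so these counts describe the list and are given without a test of it.

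**Figure D1:**
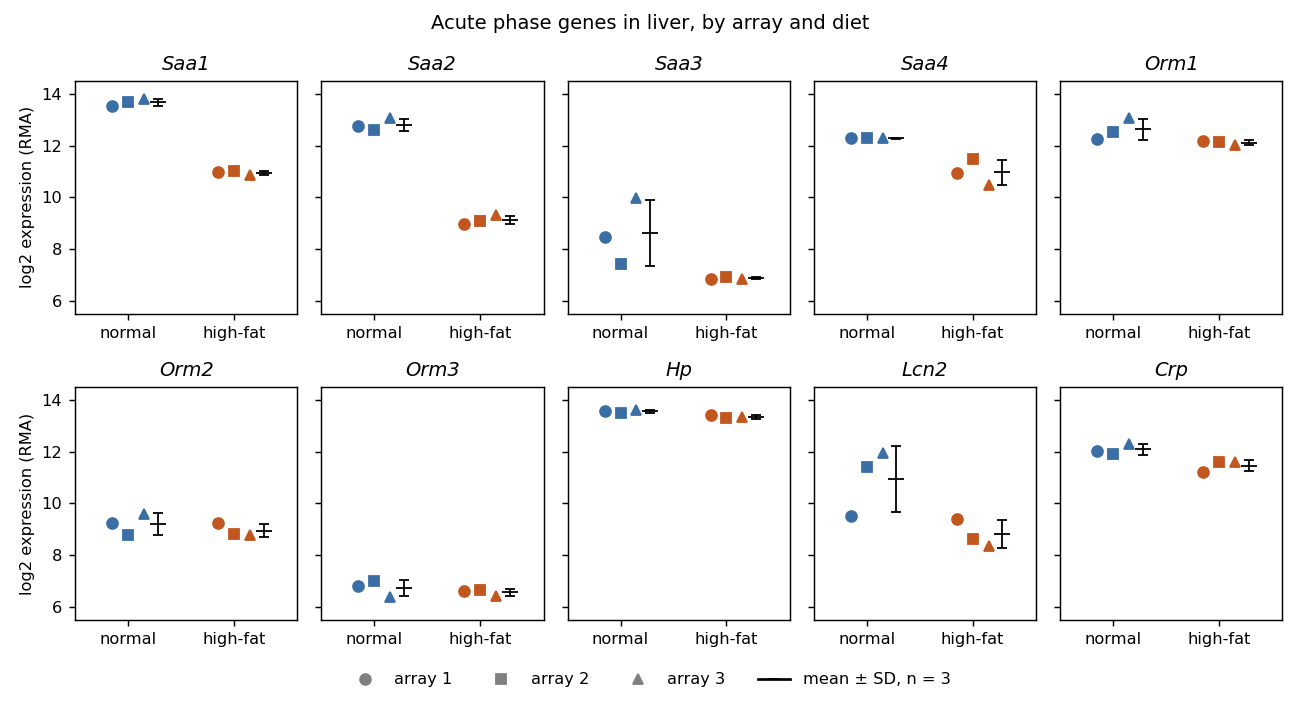
Log2 expression (y axis, RMA) of each of the 10 acute phase genes in the 3 normal diet arrays (blue) and 3 high-fat arrays (orange), with symbols for arrays 1, 2 and 3 and the mean ± SD in black. Saa1 and Saa2 separate the diets widely, Saa3 and Lcn2 scatter within the normal diet, and the values of Orm2 and Orm3 overlap.

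Saa1, which encodes a major acute phase serum amyloid A, measured 13.55, 13.69 and 13.82 in normal diet 1, 2 and 3 and 10.97, 11.0 and 10.87 in high-fat diet 1, 2 and 3. Its levels lay 2.56 log2 units apart at the closest, while the SD within a diet was 0.132 and 0.0647. It fell by 2.74 ± 0.11 (limma adjusted p = 0.000146) and had the smallest p of all 14071 genes. Another probe set annotated as Saa1 gave 13.61, 13.69 and 13.81 against 10.82, 10.9 and 10.92, a difference of -2.82 ± 0.102 (limma adjusted p = 0.000142 with every probe set tested). Its reference accession, however, belongs to Saa2 in the RefSeq table, so this probe set cannot be assigned to either copy with certainty. Counted as Saa2, it would set the Saa2 difference at -2.82.

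Saa2, the other major inducible copy, measured 12.76, 12.6 and 13.06 in the normal diet arrays and 8.98, 9.08 and 9.3 in the high-fat arrays. All 3 high-fat values lay at least 3.3 units below every normal diet value. The difference was -3.69 ± 0.15 (limma adjusted p = 0.000146), and its p was the second smallest of all genes. The probe set is of the type that can bind several related transcripts, so signal from Saa1 may be mixed into the Saa2 value. The probe set used for Saa1 is not of this type, and mixing in it was not tested.

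Saa4, a constitutive serum amyloid A gene that responds little to inflammation, measured 12.31, 12.28 and 12.28 in the normal diet and 10.93, 11.47 and 10.49 in the high-fat diet. The normal diet arrays were nearly equal, with an SD of 0.0176, and the high-fat arrays varied more, with an SD of 0.492, but the diets did not overlap. Saa4 fell by 1.33 ± 0.23 (limma adjusted p = 0.0176), and its other probe set differed by -1.61 ± 0.263 (limma adjusted p = 0.0172 with every probe set tested). The call was lost without high-fat diet 1 (-1.31, limma adjusted p = 0.0726) and without high-fat diet 3 (-1.09, limma adjusted p = 0.0523).

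Saa3, which macrophages and adipocytes express as well as inflamed liver, measured 8.48, 7.44 and 9.96 in the normal diet and 6.85, 6.92 and 6.85 in the high-fat diet. The normal diet values spread over an SD of 1.26, with normal diet 3 highest, while the high-fat SD was 0.0424. The diets did not overlap, and the gap between them was 0.52. The difference of -1.75 ± 0.54 did not pass (limma adjusted p = 0.0923), but passed without normal diet 2 (-2.35, limma adjusted p = 0.024) and without normal diet 3 (-1.09, limma adjusted p = 0.0435).

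The size of the change was compared within the Saa and Orm families as the per-array difference between a pair of genes. The change of Saa2 less that of Saa4 was -2.36 ± 0.38 (SE), that of Saa1 less Saa4 -1.42 ± 0.26, and that of Saa1 less Saa2 0.95 ± 0.17. Each of these pairs reached the smallest p that 3 arrays against 3 allow (exact permutation test, two-sided, p = 0.10), which was 0.225 when adjusted over the 9 pairs. Saa2 less Saa3 also reached p = 0.10 (exact permutation test), at -1.94 ± 0.60. Saa1 less Saa3 was -0.99 ± 0.69 and Saa3 less Saa4 -0.43 ± 0.77, with exact permutation p of 0.40 and 0.80. This exact test cannot go below p = 0.10 with 3 arrays per diet, so it could not pass a threshold of 0.05 for any pair. With Saa2 read from the probe set that carries its accession, an alternative chosen after seeing the data, Saa1 less Saa2 was 0.08 ± 0.06, Saa2 less Saa3 -1.07 ± 0.70 and Saa2 less Saa4 -1.49 ± 0.30 (exact permutation p of 0.30, 0.40 and 0.10). The larger change of Saa2 than of Saa1 therefore rests on a single probe set that may bind both copies.

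Lcn2, which encodes the siderophore-binding lipocalin 2 and lies on chromosome 2 (32384637 to 32387739), measured 9.51, 11.42 and 11.94 in the normal diet and 9.41, 8.63 and 8.37 in the high-fat diet. Normal diet 1 lay only 0.11 above the highest high-fat array, and the normal diet SD was 1.28. The difference of -2.15 ± 0.59 was 4.45-fold downward and did not pass (limma adjusted p = 0.0712). Lcn2 passed without normal diet 1 (-2.87 ± 0.319, limma adjusted p = 0.00946) and with array weights (-2.09, limma adjusted p = 0.0345). Normal diet 1 was also the array with the largest Gapdh 3' to 5' difference, and the part of RNA integrity in this value was not tested.

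The orosomucoid genes lie together on chromosome 4, from 63344556 to 63365877, a span of 21.3 kb. Orm1, the main liver orosomucoid gene, measured 12.27, 12.54 and 13.08 in the normal diet and 12.19, 12.14 and 12.01 in the high-fat diet. The lowest normal diet array was 0.08 above the highest high-fat array, and the difference of -0.52 ± 0.20 did not pass (limma adjusted p = 0.148). Orm2 measured 9.24, 8.78 and 9.6 against 9.23, 8.82 and 8.77, and Orm3 6.81, 7.0 and 6.38 against 6.63, 6.64 and 6.41. The diets overlapped in both genes. Orm2 differed by -0.27 ± 0.22 (limma adjusted p = 0.463) and Orm3 by -0.17 ± 0.17 (limma adjusted p = 0.534), neither called. With 1 array left out the differences ran from -0.70 to -0.294 for Orm1, from -0.48 to -0.0696 for Orm2 and from -0.351 to -0.0386 for Orm3, and none was called. Over the 3 Orm pairs the changes differed by -0.09 to -0.35, with exact permutation p from 0.40 to 0.90.

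Hp, which encodes haptoglobin, lies on chromosome 8 (109575128 to 109579172) and was close to the top of every array, at the 99.9th percentile of probe sets. It measured 13.59, 13.5 and 13.61 in the normal diet and 13.44, 13.3 and 13.33 in the high-fat diet. The diets did not overlap, with a gap of 0.07, and the difference of -0.21 ± 0.09 did not pass (limma adjusted p = 0.201).

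Crp, the C-reactive protein gene on chromosome 1 (172698056 to 172699966), measured 12.05, 11.91 and 12.32 in the normal diet and 11.22, 11.6 and 11.59 in the high-fat diet. All 3 high-fat arrays lay below the normal diet arrays, by at least 0.31. The difference of -0.62 ± 0.15 was 1.54-fold downward and did not pass (limma adjusted p = 0.0537). It passed after cyclic loess (-0.751, limma adjusted p = 0.0416) and with trend and robust variance (limma adjusted p = 0.0488).

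**Figure D2:**
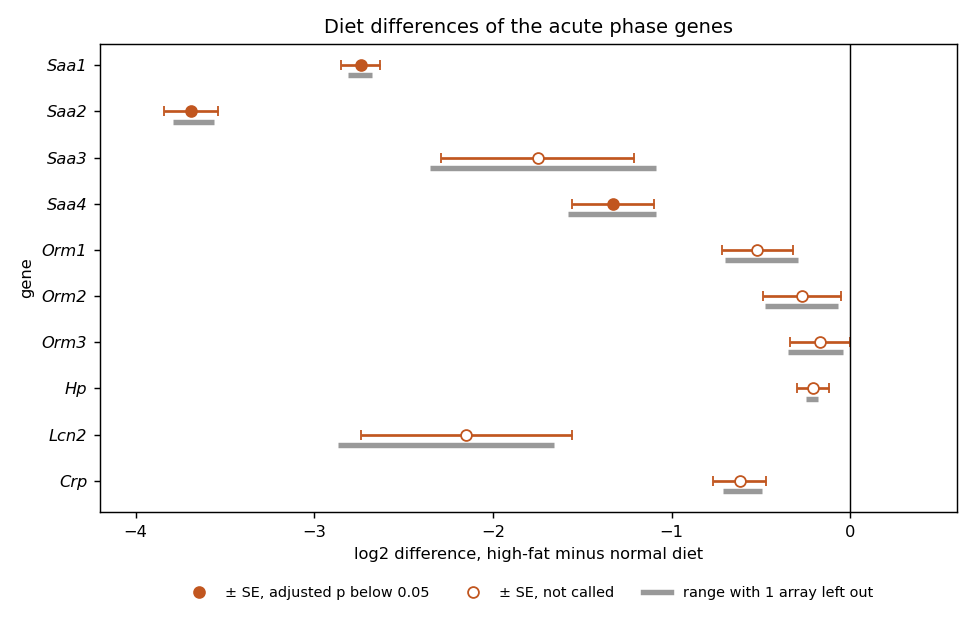
Log2 difference (x axis, high-fat minus normal diet) of each acute phase gene, with bars for limma's SE, filled points for genes called and grey lines for the range with 1 of the 6 arrays left out. All 10 points lie below 0, and the ranges with an array left out are wide for Saa3 (-2.35 to -1.09) and Lcn2 (-2.87 to -1.66) and narrow for Saa1 (-2.81 to -2.68).

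Among the normal diet pools, one held the highest value of most members. Of the 10 genes 8 had their highest normal diet value in normal diet 3, among them Saa1, Saa2, Saa3, Orm1, Lcn2 and Crp, whereas 37.9% of all tested genes did. The exceptions were Saa4, highest in normal diet 1, and Orm3, highest in normal diet 2. Of 7 tested neutrophil markers, 5 were also highest in normal diet 3 among the normal diet arrays (S100a8, S100a9, Elane, Camp and Ngp), and Cxcr2 and Csf3r were highest in normal diet 1. S100a8 and S100a9 measured 6.37 and 6.84 in normal diet 3, against 5.64 to 5.65 and 6.07 to 6.11 in the other normal diet arrays. Camp measured only 3.76, 3.8 and 3.83 in normal diet 1, 2 and 3, below the array medians, and was higher in the high-fat diet, at 4.13, 4.23 and 4.07. The summed linear signal of 10 measured neutrophil markers was 256 to 355 in the normal diet, with 355 in normal diet 3, and 228 to 258 in the high-fat diet. Over the tested markers without S100a8 and S100a9, the sum was 115, 108 and 124 in the normal diet and 107 to 116 in the high-fat diet. Of these markers Mpo and Ltf were below the level filter in every array, and 0 of the 7 tested were called by limma, with 1 lower and 1 higher at an unadjusted p below 0.05. The part of neutrophils in the Lcn2 and Saa3 values was not tested. Without normal diet 3 the differences were -2.68 for Saa1, -3.56 for Saa2, -1.09 for Saa3, -1.66 for Lcn2, -0.294 for Orm1 and -0.0696 for Orm2.

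Genes that regulate the acute phase response were lower in part. Of 36 tested cytokines, receptors, kinases, transcription factors and feedback inhibitors, 9 fell, 0 rose and 27 were not called, with a median of -0.24. Over all genes tested, 1.73% were called lower and 5.87% higher. At an unadjusted limma p below 0.05 the list had 15 lower and 1 higher. Il1r1, which encodes the signalling receptor of IL-1, measured 9.05, 9.5 and 10.21 in the normal diet and 6.83, 6.49 and 7.24 in the high-fat diet, and fell 6.65-fold (-2.73 ± 0.31, limma adjusted p = 0.00533), and differed by -1.35 with its probe sets averaged. Lifr, the receptor gene of leukaemia inhibitory factor in the IL-6 family, measured 9.64, 8.46 and 8.98 against 6.28, 7.11 and 7.01 (-2.23 ± 0.33, limma adjusted p = 0.0118). The Lifr arrays did not overlap, but other Lifr probe sets differed by -0.646 and -0.529 and were not called.

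Stat3, the transcription factor gene of IL-6 signalling, measured 9.51, 10.01 and 9.66 against 8.62, 8.75 and 8.8, and fell 2.01-fold (-1.0 ± 0.14, limma adjusted p = 0.011). Its other probe sets differed by -1.36 (limma adjusted p = 0.00326) and -0.264 (limma adjusted p = 0.262). Bcl3, which encodes a nuclear cofactor of NF-kappaB, fell 2.82-fold, from a mean of 8.27 to 6.77 (-1.50 ± 0.23, limma adjusted p = 0.0131). The other 5 were Socs3, a STAT3-induced feedback inhibitor (-2.58), Tifa (-2.97) and Myd88 (-0.70), adaptors of NF-kappaB signalling, and the hepatocyte factor genes Hnf4a (-0.69) and Foxa2 (-0.94). These 5 complete the count and, like the genes named next and in the lists below as not called, were chosen after their values were seen. Not called were the cytokine genes Il1b (-0.35 ± 0.20) and Tnf (-0.14 ± 0.17), the receptor genes Il6ra (-0.82 ± 0.41) and Il6st (-0.27 ± 0.09), and Cebpb (-0.15 ± 0.14), Cebpd (-0.47 ± 0.15) and Rela (-0.48 ± 0.13), which encode transcription factors. Without high-fat diet 1, 2 or 3 the list had 2, 2 and 1 calls in place of 9, as calls over all genes dropped too. Stat3 and Bcl3 lost their call with any one of these arrays left out (limma adjusted p from 0.052 to 0.0639), as did Lifr without high-fat diet 3 (limma adjusted p = 0.057).

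Other positive acute phase genes, which like the members rise in inflammation, were lower in part under the high-fat diet. Of 30 tested, 12 fell, 0 rose and 18 were not called, with a median of -0.58 (17 lower and 2 higher at an unadjusted limma p below 0.05). The shares over all genes were 1.73% called lower and 5.87% called higher. Mt2 and Mt1, which encode the zinc-binding metallothioneins, fell 9.38-fold and 5.79-fold. Mt2 measured 12.64, 13.13 and 13.56 in the normal diet and 10.31, 9.98 and 9.36 in the high-fat diet (-3.23 ± 0.29, limma adjusted p = 0.00326), with no overlap. Mt1 differed by -2.53 ± 0.24 (limma adjusted p = 0.00351), and by -1.75 with its probe set without a suffix, which was not called (limma adjusted p = 0.0542). Steap4, a metalloreductase gene, fell 4.36-fold (-2.13 ± 0.21, limma adjusted p = 0.00395), and Nnmt, the nicotinamide methyltransferase gene, 2.35-fold (-1.23 ± 0.12, limma adjusted p = 0.00396).

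The 3 fibrinogen chain genes were among the 12 (Fga -0.83, Fgb -0.78 and Fgg -0.60), as were the inter-alpha-trypsin inhibitor gene Itih4 (-0.60), Lrg1 (-1.23), Fgl1 (-1.32), the protease inhibitor gene Serpina3n (-1.64) and the zinc transporter gene Slc39a14 (-1.48). Not called were Hpx, which encodes the haem scavenger hemopexin (-0.04 ± 0.10), Cp, which encodes ceruloplasmin (-0.09 ± 0.19), the hepcidin gene Hamp (0.19 ± 0.37) and Apcs (-0.97 ± 0.64), which encodes serum amyloid P and lies 193995 bases beyond Crp, as its nearest tested neighbour on that side. Apcs scattered in the normal diet, at 10.36, 11.1 and 13.21, with normal diet 3 highest. Without high-fat diet 1, 2 or 3 the list had 7, 6 and 5 calls in place of 12.

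Genes known to fall in an acute phase response were mostly not called. Of 18 tested, 3 fell, 0 rose and 15 were not called, with a median of -0.01 (5 lower and 0 higher at an unadjusted limma p below 0.05). Beside this, 1.73% of all genes were called lower and 5.87% higher. Fetub, a fetuin gene, was 1.89-fold lower (-0.92 ± 0.15, limma adjusted p = 0.0138), Igf1 1.58-fold (-0.66 ± 0.14, limma adjusted p = 0.0363) and Cyp2c29, a cytochrome P450 gene, 1.33-fold (-0.41 ± 0.09, limma adjusted p = 0.0381). Albumin and transthyretin, the classical negative markers, differed by 0.07 ± 0.09 and 0.13 ± 0.09 and were not called. Without high-fat diet 1, 2 or 3 the list had 0, 0 and 1 calls, and without normal diet 2 it had 1, as it did with probe sets without a suffix. Cyp2c29 was not called without normal diet 1, normal diet 2 or any one of the high-fat arrays, after median centring or with a replicate block. Igf1 lost its call without normal diet 2, without any one of the high-fat arrays and with probe sets without a suffix, and Fetub without high-fat diet 1 or 2.

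Known receptors and binding partners of the members were mostly not called. Of 20 tested, 3 rose, 0 fell and 17 were not called, with a median of 0.06 (6 higher and 2 lower at an unadjusted limma p below 0.05). With 5.87% of all genes called higher and 1.73% lower, the absence of a lower call does not set this list apart. The 3 that rose were C1qc (0.67 ± 0.12, limma adjusted p = 0.0192) and C1qb (0.70 ± 0.15, limma adjusted p = 0.0342), chains of complement C1q, which C-reactive protein binds, and the Fc receptor gene Fcgr3 (0.54 ± 0.12, limma adjusted p = 0.0388). Other C1qb probe sets differed by 0.331 and 0.787 (limma adjusted p = 0.151 and 0.0501 with every probe set tested) and were not called. Of 12 macrophage and Kupffer cell markers 6 also rose, and the summed linear signal of all 12 was 2975 to 3452 in the normal diet and 4814 to 5124 in the high-fat diet. The list was not uniform. Clec4f (0.07 ± 0.18), Marco (-0.06 ± 0.47), Timd4 (-0.15 ± 0.17) and Trem2 (-0.43 ± 0.15) were among those not called. At an unadjusted limma p below 0.05 the list had 7 higher and 1 lower, which was Trem2. C1qa and Cd163 stand in both lists. The part of macrophage content in these 3 genes was not tested. The count of 3 was 0 after quantile normalization and without high-fat diet 1, 2 or 3, 1 after cyclic loess and without normal diet 1, and 5 without normal diet 3 or with all probe sets of a gene averaged. The haptoglobin receptor gene Cd163 (-0.63 ± 0.30) and the lipocalin 2 receptor gene Slc22a17 (-0.03 ± 0.11) were not called. Nor were the genes with the highest and lowest difference of the list, Cd36 (2.17 ± 0.64, limma adjusted p = 0.0832) and Hmox1 (-0.73 ± 0.27). Cd36 measured 7.82, 8.65 and 5.74 in the normal diet and 9.46, 9.67 and 9.6 in the high-fat diet, without overlap.

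**Figure D3:**
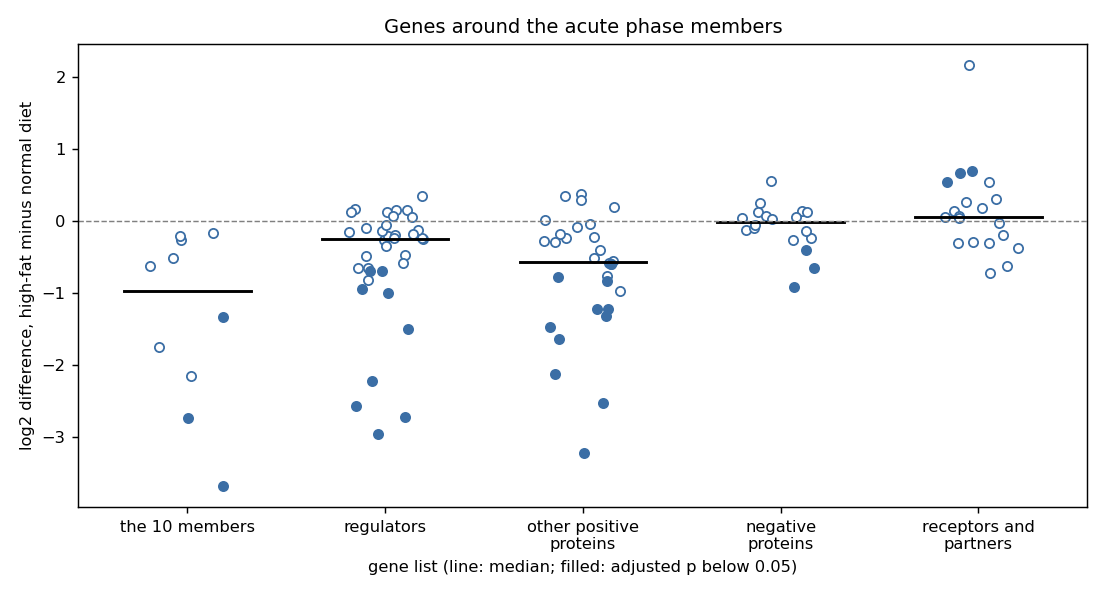
Log2 difference (y axis, high-fat minus normal diet) of the 10 members and of the tested genes in 4 lists of their regulators, fellow acute phase proteins and receptors, with a line at the median and filled points for limma calls. Filled points lie below 0 in every list other than receptors and partners, where 3 lie above.

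Genes beside the members on the chromosome were compared between diets as well. The 3 nearest tested genes on each side of the Saa cluster, Kcnc1, Sergef, Saal1, Gtf2h1, Ldha and Ldhc, differed by -0.31 to 0.19, and 0 of the 6 were called. Saal1 lies 1308 bases from Saa3 and differed by 0.01 ± 0.09. Around the Orm cluster the 6 neighbours, Ambp, Kif12, Col27a1, Akna, Aknaos and Whrn, differed by -0.21 to -0.03, and 0 were called. Over all 5 regions that hold the members, 0 of 30 neighbours were called by limma, with differences from -0.97 to 0.47, and 2 were lower and 2 higher at an unadjusted p below 0.05. Over all genes tested only 1.73% were called lower and 5.87% higher. The absence of calls among 6 or 30 neighbours is thus near what any genes would give and says nothing particular about these regions. The difference between a neighbour and a member was not tested.

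**Figure D4:**
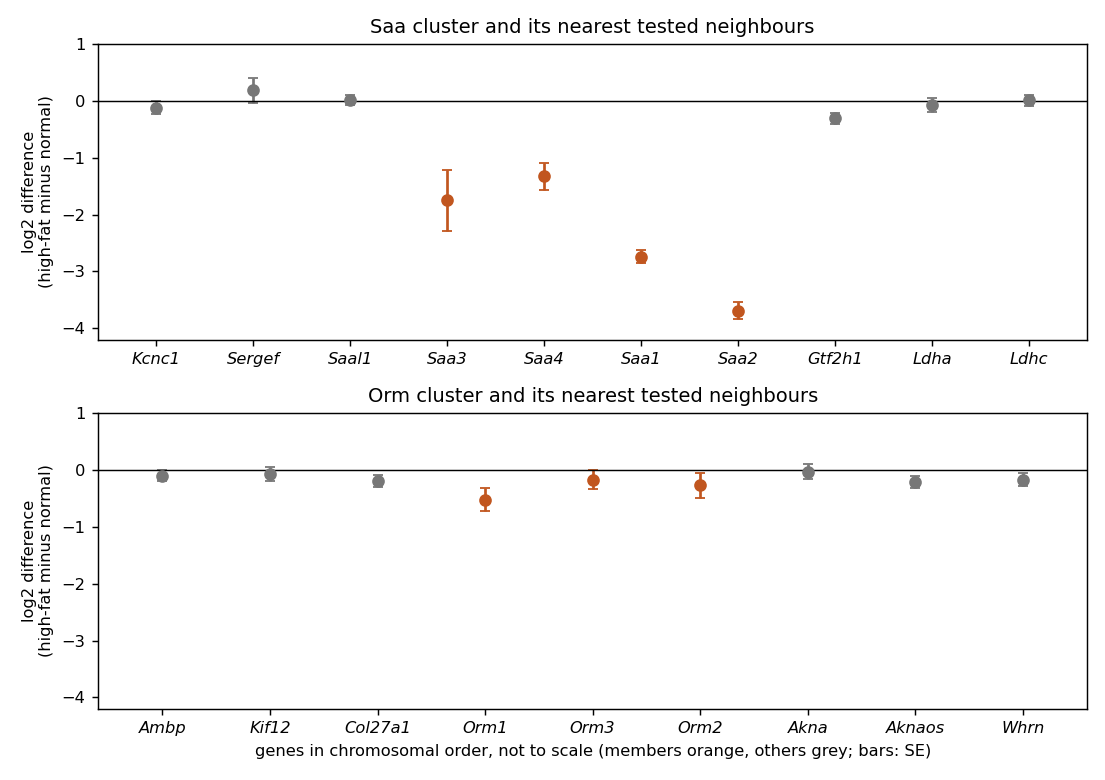
Log2 difference (y axis, high-fat minus normal diet, bars: SE) of the Saa and Orm genes (orange) and the 3 nearest tested neighbours on each side (grey), in chromosomal order and not to scale. The 4 Saa genes lie between -3.69 and -1.33 and their neighbours between -0.31 and 0.19.

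Other genes with a profile near that of the 4 Saa genes were sought as the smallest root mean square difference between log2 levels centred on each gene's mean, over the 6 arrays and 14061 genes. The nearest to the mean Saa profile, which changed by -2.38, was Steap4 (0.257 log2 units), followed by C8b, a terminal complement gene (0.264), and Gm16551 (0.304). C8b measured 10.04, 9.33 and 10.63 in the normal diet and 7.28, 8.01 and 7.87 in the high-fat diet (-2.28 ± 0.33, limma adjusted p = 0.0117). Gm16551 lay at 4.73 to 6.4 and at 2.9 to 3.17, the latter below the level filter of those arrays. Nearest to the mean Orm profile, which changed by -0.32, were Nron (0.00975), Pde3a (0.03) and Kcna1 (0.0365), none of them called (limma adjusted p from 0.137 to 0.17). These genes lay at 3.9 to 5.17, not far above the array medians of 3.96 to 4.05. The mean Orm profile also joins unlike ones, as normal diet 3 was the highest array for Orm1 (13.08) and Orm2 (9.6) and the lowest for Orm3 (6.38). Such nearness is no sign of shared regulation.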

How the data were processed

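Per the submitters' processing notes, the authors made the deposited log2 values with RMA in Affymetrix Expression Console 1.0, and per the labels' protocols 10 µg of RNA was labelled. RMA, as a method, corrects background, normalizes arrays by quantiles and summarises the probes of a set. The genome build is not given in the sources used here, and depth does not apply to arrays, whose number limits the precision. Of 45101 probe sets, 64 controls were left out. A gene's value was taken from the probe set of highest average level. Genes had to exceed the 40th percentile, computed within each array, on 3 or more of the 6 arrays.

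limma 3.58.1 in R 4.3.3 (lmFit, eBayes, two-sided) was fitted across all 14071 genes, with Benjamini-Hochberg adjustment, and tested on simulated data. Tables used Python 3.11.15, pandas 2.3.3 and scipy 1.17.1. Loci and promoters are from RefSeq, GRCm38.p6, and protein sequences were not used here. The members and lists were chosen with earlier results of these data known. Named genes were all members, up to 4 called genes of each list with the smallest p, the 3 nearest profiles per family and the neighbours, beside genes said to complete a count. Alternatives were other level filters, probe set choices, variance models, scalings, thresholds, a replicate block and leaving out single arrays.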

Additional observations from a re-analysis of the deposited data

How the results depend on the processing

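All 10 members kept a lower mean under the high-fat diet in each alternative run, 169 values in all, of which 161 kept their side of the threshold. In many of these runs the sign could not change. Other level filters, the trend and robust variance and the replicate block leave a difference as it is, and so do probe set choices for a gene with 1 probe set. Only array weights, other scalings, left-out arrays and, for Saa1, Saa2 and Saa4, other probe sets could move it. The values that changed their side of the threshold were Saa4 without high-fat diet 1 or 3, Saa3 without normal diet 2 or 3, Lcn2 without normal diet 1 or with array weights, and Crp after cyclic loess or with trend and robust variance, all given above. Saa1 and Saa2 were called in each alternative that gave them a value (Saa2 had none among probe sets without a suffix), with differences from -2.87 to -2.68 and from -3.82 to -2.82. The count of 3 members called lower was 2 to 4 with an array left out and 2 to 4 otherwise, and 0 members were called higher throughout. Same-numbered pools of the diets deviated together with r of -0.0122, 0.0359 and 0.0999 across genes, so the numbers were not taken as pairs. With a replicate block on the shared pool numbers, 3 members were called lower, and 768 of all genes were called in place of 1070. At an adjusted p below 0.01 the count was 2.

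The 9 regulators, 12 other positive proteins and 3 negative proteins called lower became 1 to 10, 5 to 13 and 0 to 3 with an array left out, and 0 to 5 receptors and partners were called higher. Over all genes 244 calls were lower and 826 higher, against 299 and 597 after quantile normalization, and the total of 1070 became 272, 217 and 169 without high-fat diet 1, 2 or 3. The stricter motif letters were found in 0 of 8 member windows. The limits are 3 pools per diet and probe sets shared by near-identical Saa copies.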
